A study of Mus musculus with 20 samples.

Results

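The promoters of small nucleolar and small Cajal-body RNAs were examined in sperm DNA. They were taken from a table of 22480 promoter probes as every row whose symbol begins with Snord, Snora or Scarna, together with DQ267102, which gave 111 probes. Of these, 67 belong to box C/D RNAs (Snord), 34 to box H/ACA RNAs (Snora) and 9 to small Cajal-body RNAs (Scarna), and DQ267102 is an RNA within Rian that carries both C/D boxes. Each probe is 2200 bp long and runs from 2000 bp upstream to 200 bp downstream of the annotated start of the RNA.

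The samples were sperm of 20 males aged 8 weeks, 5 in each of 4 groups. Wild type C57BL/6J and FVB/N mothers had received bis(2-ethylhexyl)phthalate (DEHP, a plasticizer) by gavage at 300 mg/kg/day in corn oil on gestation days 9 to 19, or corn oil alone in the control groups. Methylated DNA was pulled down with a protein domain that binds methylated CG sites and sequenced (MBD-seq), so that more reads over a probe stand for more captured methylated DNA. DEHP and control DNA, each with both strains, went to the sequencing provider as separate batches, and treatment and batch therefore cannot be told apart in any comparison of DEHP with control. The values are the authors' means and SDs of normalized reads over the 5 males of a group. Single libraries and their depth were not analysed here.

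Small nucleolar RNAs guide the chemical modification of other RNAs in the nucleolus. Box C/D RNAs, held by fibrillarin and its partners, direct methylation of riboses in ribosomal RNA, and box H/ACA RNAs, held by dyskerin and its partners, direct conversion of uridine to pseudouridine. Cajal-body RNAs do the same for the RNAs of the spliceosome. In mammals most are cut out of introns after splicing, many from genes of ribosomal proteins and of ribosome assembly, and so have no promoter of their own. A few large clusters lie in imprinted regions, where only the maternal or the paternal copy is expressed.

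That arrangement was seen in the annotation of the probes. The RNA lay in an intron of a gene on its own strand in 93 cases, in an exon in 10, between genes in 6 and antisense to a gene in 2. The 103 RNAs with a host fell in 80 host genes, and 29 of them in 21 genes of ribosomal proteins. Overlapping probes merged into 92 regions: 79 held 1 probe, and the other 13 shared 32 probes, up to 4 in a region (4 RNAs of Snhg12). For 4 members, Snord14a, Snord14d, Snord53 and Snord118, RefSeq places the gene on another chromosome than the probe, and the RefSeq RNA matched no stretch of the probe at more than 52.9% of its bases without gaps. Both antisense cases and 1 of those between genes are among these 4, whose values stand for the probe alone. Neighbouring probes in a merged region share reads and are not independent measurements. The transcription start of the host or of another gene lay inside 48 probes, and 63 probes held none in the basic GENCODE M21 set.

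The features that define the 2 RNA classes are short boxes near the RNA ends, and the RNAs on which the results below turn are printed here to show what the probe is anchored to. Letters are from GRCm38.p6, 5′ to 3′, beginning 10 bases before the annotated start for C/D RNAs. Capitals mark TGATGA (box C) and CTGA (box D), or ACA near the end of the H/ACA RNA Snora31. For Snord64 another TGATGA begins just before the printed stretch, and which copy is box C was not tested.
Snord37 (chr10:81178951-81179013, + strand): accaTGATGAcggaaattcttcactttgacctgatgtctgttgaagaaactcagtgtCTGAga
Snord57 (chr2:130278016-130278088, + strand): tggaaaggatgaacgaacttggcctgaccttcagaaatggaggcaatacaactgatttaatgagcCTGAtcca
Snord90 (chr2:37400061-37400138, - strand): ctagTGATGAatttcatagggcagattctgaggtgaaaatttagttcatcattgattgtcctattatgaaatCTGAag
DQ267102 (chr12:109656335-109656415, + strand): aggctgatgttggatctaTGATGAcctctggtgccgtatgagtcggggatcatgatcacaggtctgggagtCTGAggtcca
Snord64 (chr7:59978811-59978866, - strand): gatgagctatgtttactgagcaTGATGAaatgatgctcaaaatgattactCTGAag
Snord116 (chr7:59751491-59751590, - strand): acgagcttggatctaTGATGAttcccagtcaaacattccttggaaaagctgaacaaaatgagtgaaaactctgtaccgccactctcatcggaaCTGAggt
Snora31 (chr14:75847923-75848034, + strand): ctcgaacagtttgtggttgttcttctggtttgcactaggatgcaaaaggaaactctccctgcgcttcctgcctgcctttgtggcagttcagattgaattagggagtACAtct
On the RNA strand alone, CTGA lay within the last 20 bases in all 59 C/D RNAs that had an annotated body of at least 30 bases beginning at the probe's anchor, against 13 of 59 windows of the same length taken 200 bases upstream. TGATGA, from 10 bases before to 20 bases after the annotated start, was present in 35 of 59 and in 4 of 59 of the upstream windows. ACA stood 2 to 4 bases before the end of 27 of 32 H/ACA RNAs and of 2 of 32 upstream windows. Snord57 above is one of the RNAs without the exact letters TGATGA in that window.

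The stretch around the RNA start is not a promoter of one kind. Windows from 250 bases before to 50 bases from the start of the RNA are shown for 2 members of Rpl3 that lie near and far from the start of that gene (Snord43 and Snord83b) and for DQ267102. Capitals mark CG sites, which are the sites the capture protein binds when methylated.
Snord43 (chr15:80082857-80083156, - strand): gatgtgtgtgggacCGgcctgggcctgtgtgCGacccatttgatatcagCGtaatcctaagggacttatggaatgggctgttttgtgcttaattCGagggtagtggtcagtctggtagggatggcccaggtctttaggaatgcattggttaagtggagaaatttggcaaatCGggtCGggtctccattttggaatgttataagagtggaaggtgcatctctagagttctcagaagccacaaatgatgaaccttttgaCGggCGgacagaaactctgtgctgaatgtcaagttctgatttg
Snord83b (chr15:80078530-80078829, - strand): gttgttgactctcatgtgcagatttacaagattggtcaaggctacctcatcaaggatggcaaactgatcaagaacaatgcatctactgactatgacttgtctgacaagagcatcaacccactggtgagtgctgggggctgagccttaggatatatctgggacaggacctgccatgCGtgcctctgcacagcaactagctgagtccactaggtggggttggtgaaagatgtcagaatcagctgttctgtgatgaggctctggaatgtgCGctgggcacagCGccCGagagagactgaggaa
DQ267102 (chr12:109656095-109656394, + strand): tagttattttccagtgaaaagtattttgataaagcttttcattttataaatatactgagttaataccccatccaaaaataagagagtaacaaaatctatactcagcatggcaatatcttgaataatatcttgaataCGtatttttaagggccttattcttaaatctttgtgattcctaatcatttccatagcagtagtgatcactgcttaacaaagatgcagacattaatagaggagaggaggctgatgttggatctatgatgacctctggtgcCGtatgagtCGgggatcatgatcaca
The window of Snord43 held 8 CG sites, that of Snord83b 4 and that of DQ267102 3. Over the whole probes the counts were 73, 28 and 23 CG sites, and the probe of Snord37, the member with the most reads in both control groups, held 79.

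Reads over these probes were higher than over promoters at large. The median of the authors' means was 9.0 normalized reads in C57BL/6J controls and 7.2 with DEHP, and in FVB/N 4.6 and 8.5. Over all 22480 promoters the corresponding medians were 5.0, 5.3, 3.0 and 4.9. Promoters of microRNAs, another class of small RNAs often found inside host genes (996 probes), stood higher still, at 17.6, 11.6, 10.5 and 11.7. Because capture rises with the number of CG sites, reads were also divided by the CG sites of the probe. The members' median was then 0.312 normalized reads per CG site in C57BL/6J controls and 0.175 in FVB/N controls, against 0.138 and 0.0844 over all promoters. Members had a median of 40 CG sites (7 to 142) and all promoters 45. These are descriptions of levels, and no test was run on them.

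Members over a gene start and the remaining members differed in CG sites as well as in reads. Probes that held a gene start had a median of 79.5 CG sites and few reads, 6.5 normalized reads in C57BL/6J controls and 3.7 in FVB/N controls. Probes without one had 19 CG sites and 10.4 and 5.3 normalized reads. Per CG site the probes over a start had a median of 0.0871 in C57BL/6J controls and 0.0583 with DEHP, and in FVB/N 0.0466 and 0.0708, while the other members had 0.518, 0.496, 0.262 and 0.510. The difference averaged -2.75 on the log2 scale over the 4 groups, and -1.59 when the starts of all annotated transcripts were used, which placed a start in 76 probes. Within both classes of at most 60 CG sites the difference was far smaller or turned. With 21 to 60 CG sites the 5 members over a start had a median of 0.811 reads per CG site in C57BL/6J controls and 0.489 in FVB/N controls, and the 28 not over one had 0.781 and 0.487. In DEHP males of C57BL/6J the medians were 0.323 over a start and 0.472 without, and in those of FVB/N 0.323 and 0.494. With at most 20 CG sites the 4 over a start had 0.532 and 0.190 in the controls of the 2 strains and the 33 not over one 0.505 and 0.229. Above 60 CG sites, 39 of 41 members were over a start, which left 2 for comparison, Snord37 among them. The pooled difference therefore cannot be told apart from the number of CG sites.

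Within each class of CG sites the members were also set beside all promoters. With at most 20 CG sites the 37 members had a median of 0.507 reads per CG site in C57BL/6J controls and 0.515 with DEHP, and in FVB/N 0.217 and 0.544, against 0.333, 0.491, 0.200 and 0.445 over 4938 promoters. The class of 21 to 60 CG sites held 33 members. In C57BL/6J controls these 33 had a median of 0.811 reads per CG site, against 0.205 over the 9821 promoters with as many CG sites, and in FVB/N controls 0.489 against 0.122. In the DEHP groups the gap was smaller, with 0.466 against 0.175 in C57BL/6J and 0.483 against 0.165 in FVB/N. Above 60 CG sites the members' median per CG site was 0.0743 in C57BL/6J controls and 0.0539 with DEHP, and in FVB/N 0.0381 and 0.0622. Over 7721 promoters it was 0.0444, 0.0452, 0.0284 and 0.0419 in the same order.

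**Figure D1:**
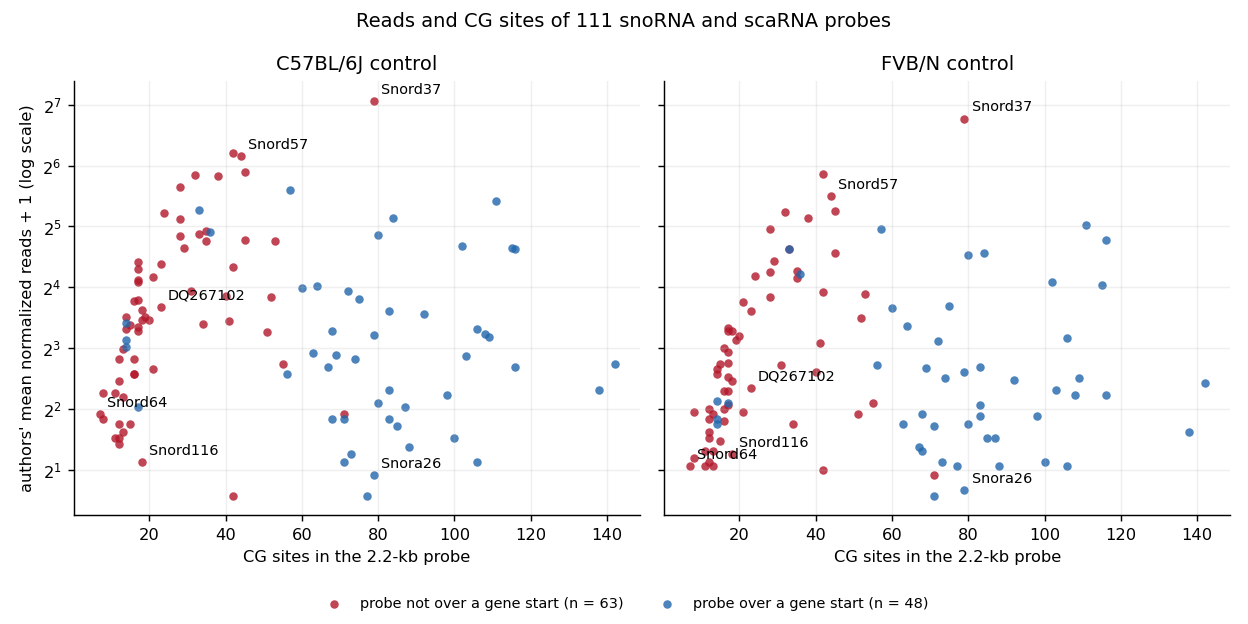
Authors' mean normalized reads plus 1 (vertical, log scale) against CG sites in the 2200-bp probe (horizontal) for 111 probes in C57BL/6J and FVB/N controls. Points are probes, 63 without a gene start (red) and 48 with one (blue), so that the red points rise steeply at low CG counts while most blue points lie low at high CG counts, with Snord37 highest in both panels.

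The members at the ends of the range were read at widely different levels. Snord37, encoded in an intron of Eef2 (elongation factor of translation), had 132.6 ± 55.0 normalized reads (SD, n = 5) in C57BL/6J controls and 108.0 ± 24.0 in FVB/N controls, rank 7 of 22480 in both. Snord23 in Nop53, a ribosome assembly gene, had 72.4 ± 32.5 in C57BL/6J controls. Snora47 in Zbed3 and Snora62 in Rpsa, the highest H/ACA members, had 36.8 ± 9.6 and 34.1 ± 8.9 in FVB/N controls. None of these 4 probes held a gene start. At the other end, Snora26 lay 470 bp inside Dancr, and its probe had 79 CG sites, as many as that of Snord37, but only 0.9 ± 0.9 normalized reads in C57BL/6J controls and 0.6 ± 0.6 in FVB/N controls. Snord61 in Rbmx had 0.5 ± 0.6 and 1.1 ± 1.2 with 77 CG sites, and Snord93 had 1.2 ± 0.8 and 0.5 ± 0.6 with 71. The low Snora69 in Rpl39 (0.5 ± 0.6 and 1.0 ± 1.7, with 42 CG sites) was without a gene start in its probe and is, like Snord61, on the X chromosome. By the mean over the 4 groups, the highest Cajal-body RNA was Scarna10, in an exon of Ncapd2, with 37.6 ± 9.3 and 23.7 ± 6.1, followed by Scarna6 in Atg16l1 with 9.0 ± 2.4 and 5.0 ± 1.9. By the same mean, Scarna17 and Scarna2, which lie between genes, were lowest, with 1.2 ± 1.2 and 2.8 ± 2.7 normalized reads in C57BL/6J controls and 106 and 71 CG sites.

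Reads per CG site rose with the distance from the start of the host gene up to 10000 bp, whereas undivided reads did so only up to 3000 bp. With 16 RNAs at most 1000 bp from that start, the median was 0.0380 normalized reads per CG site in C57BL/6J controls and 0.0305 in FVB/N controls. It was 0.105 and 0.0663 at 1001 to 2000 bp (21 RNAs), 0.457 and 0.198 at 2001 to 3000 bp (19 RNAs) and 0.633 and 0.411 at 3001 to 10000 bp (23 RNAs). Beyond 10000 bp (24 RNAs) it was 0.515 and 0.236. In both DEHP groups the median rose over all 5 classes, from 0.0462 to 0.640 in C57BL/6J and from 0.0440 to 0.595 in FVB/N. The median number of CG sites fell over the same classes, from 84 to 80, 42, 18 and 15.5. Not divided by CG sites, the medians in C57BL/6J controls were 2.95, 8.8, 14.3, 11.4 and 8.9 normalized reads from the nearest class to the farthest, and in FVB/N controls 2.55, 5.4, 10.3, 7.8 and 3.3. In the DEHP groups they were 3.65, 6.2, 11.0, 10.6 and 9.5 for C57BL/6J males and 3.75, 7.0, 11.4, 11.2 and 8.65 for FVB/N males. In all 4 groups the undivided median was thus highest at 2001 to 3000 bp.

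**Figure D2:**
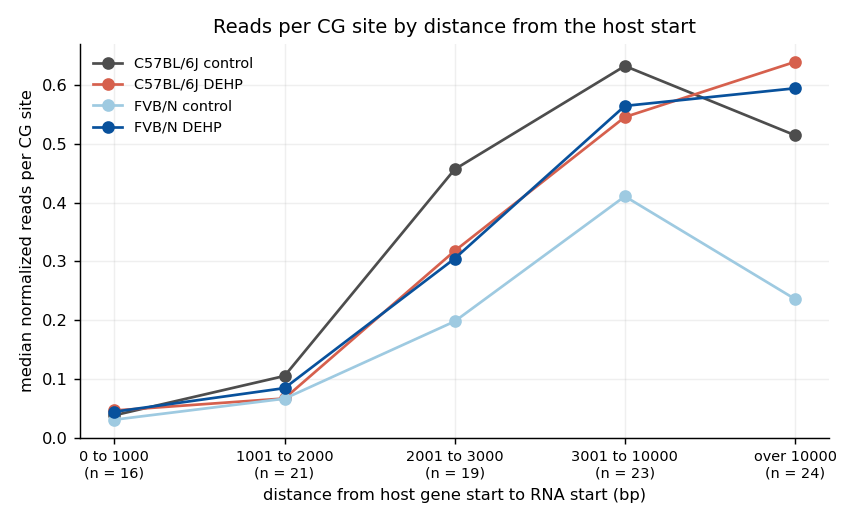
Median normalized reads per CG site (vertical) of the RNAs in 5 classes of distance from the host gene start to the RNA start (horizontal, bp, with the number of RNAs). Each line is 1 of the 4 groups of 5 males, and all 4 lines lie at or under 0.105 in the first 2 classes and rise several-fold by 3001 to 10000 bp.

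The comparison can be made inside 1 gene, since 17 hosts carried 2 or more of the RNAs. In reads not divided by CG sites, the RNA farthest from the host start had the higher mean in 16 of 17 hosts in C57BL/6J controls and 14 with DEHP (1 tie), and in FVB/N in 16 and 15. From each mean and SD a range was taken that must hold all 5 libraries (1.79 SD to either side, with mean and SD both widened for rounding), and ranges that stay apart show that all 5 values of one probe exceeded all 5 of the other. By this measure the far probe was wholly above the near one in 6 hosts in C57BL/6J controls and 2 with DEHP, in FVB/N in 3 and 4, and in no host wholly below. Near and far probes were read in the same libraries and 11 of the 17 pairs overlap. In the 6 pairs without overlap the far probe had more reads in 6 of 6 hosts in both control groups, with a median ratio of 4.96 in C57BL/6J controls and 4.11 in FVB/N controls, and in 5 of 6 in both DEHP groups (2.99 and 3.05). Per CG site the far probe was higher in 4 of these 6 hosts in C57BL/6J controls, in 6 in FVB/N controls and in 4 in each DEHP group. In the 4 hosts whose near probe was not over a gene start, it was higher per CG site in 2 of 4 in C57BL/6J controls and 1 with DEHP, and in FVB/N in 4 and 2. In the 8 hosts whose near probe was over a start and whose far probe was not, it was higher per CG site in 8 of 8 in every group, and the near probe held more CG sites in all 8.

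In Nop56, itself a core protein of box C/D particles, Snord110 lay 1148 bp from the start and had 9.0 ± 1.2 normalized reads in C57BL/6J controls and 6.3 ± 1.7 with DEHP, and in FVB/N 8.0 ± 2.9 and 8.5 ± 2.6. Snord57, 3659 bp from the start, had 70.5 ± 13.0, 29.1 ± 9.0, 44.0 ± 15.5 and 35.6 ± 6.9, so that its libraries lay above those of Snord110 in all 4 groups. The promoter of Nop56 had 3.6 ± 2.1, 5.4 ± 1.8, 1.8 ± 1.6 and 5.3 ± 1.4. In Rpl3, Snord43 (500 bp) had 1.4, 3.5, 1.2 and 2.0 normalized reads and Snord83b (4827 bp) had 27.6, 15.3, 13.4 and 10.7 in the same order of groups, and the libraries were apart in all groups but FVB/N controls. The 2 windows printed above belong to this pair, and the one with fewer CG sites had more reads. In Rps3, Snord15a (777 bp) had 2.6, 4.6, 2.3 and 4.5 and Snord15b (4002 bp) had 36.1, 16.1, 17.3 and 17.7, with separate libraries in C57BL/6J controls and FVB/N DEHP. In 1810032O08Rik, Snord1c (845 bp) had 2.3, 3.3, 1.9 and 2.1 and Snord1a (2937 bp) 28.4, 15.8, 23.9 and 17.8, separate in all groups but C57BL/6J DEHP. Rpl23a was the host in which the order was turned in both control groups: Snord42b at 471 bp had 15.3 and 9.3 normalized reads and Snord42a at 2238 bp 9.9 and 7.5, with overlapping ranges.

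**Figure D3:**
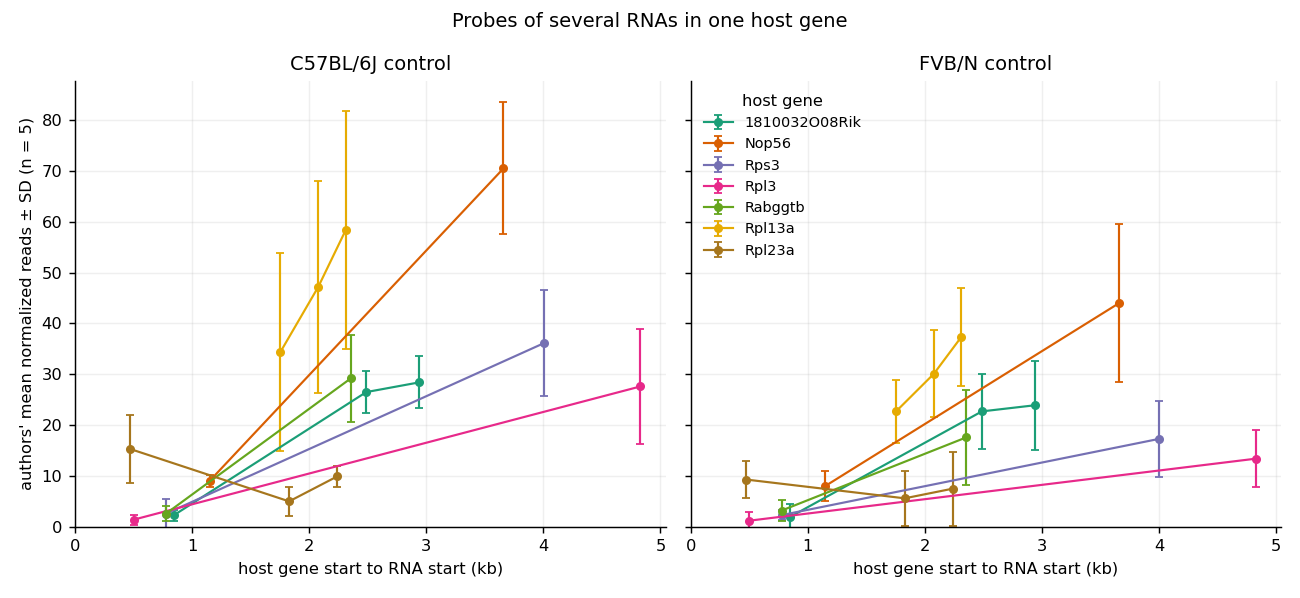
Authors' mean normalized reads ± SD (vertical, n = 5) against the distance from the host gene start to the RNA start (horizontal, kb) for the RNAs of 7 host genes, in C57BL/6J and FVB/N controls. Lines join the RNAs of 1 host, and they rise with distance in each host shown except Rpl23a, for example from 9.0 to 70.5 in Nop56 in C57BL/6J controls.

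The 2 imprinted clusters were represented by few probes. On chromosome 7, between Ube3a and Ndn, where small nucleolar RNAs are expressed from the paternal copy, the table held Snord116 and Snord64. On chromosome 12, between Dlk1 and Dio3, where they are expressed from the maternal copy, it held DQ267102. With 2 and 1 probes no test against the rest was possible, and the values are given as a description.

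Snord116 is a tandem array in which many near-identical copies follow each other, and its probe (chr7:59751381-59753580, GRCm38.p6, minus strand) is a poor measure of it. Only 15.7% of the 51-base sequences sampled from the probe were unique in the genome, and their median copy number was 8. The RNA body of the gene table lies 75501 bp away, and the probe holds a copy identical over all 90 bases. Pairs that aligned to several positions had been discarded, and reads over it were few: 1.2 ± 1.5 normalized reads in C57BL/6J controls and 0.7 ± 1.2 with DEHP, and in FVB/N 1.4 ± 1.6 and 0.5 ± 1.1. Snord64 was 95.4% unique but had 7 CG sites, the fewest of all members. Its means were 2.8 ± 1.1, 4.8 ± 2.6, 1.1 ± 1.2 and 4.0 ± 2.0, which is 0.400, 0.686, 0.157 and 0.571 per CG site. The median of both per CG site was 0.233, 0.362, 0.117 and 0.300, against 0.296, 0.273, 0.178 and 0.257 over the 108 members outside the clusters. The cluster was thus below the rest in both control groups and above it in both DEHP groups, and over the 4 groups its log2 difference from the rest averaged -0.08. When probes under 90% unique were left out, in the cluster (which leaves Snord64) and among the rest, it was 0.53. The cluster had a median of 12.5 CG sites and the rest 41.5. The 37 members with at most 20 CG sites, both cluster probes among them, had 0.507, 0.515, 0.217 and 0.544 per CG site. Beside these, the cluster median was lower in all 4 groups, whereas Snord64 alone was lower in controls and higher with DEHP.

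DQ267102, in an intron of Rian 52400 bp from its start, had 11.8 ± 2.9 normalized reads in C57BL/6J controls and 19.4 ± 6.3 with DEHP, and in FVB/N 4.1 ± 2.2 and 19.2 ± 1.3. Per CG site this was 0.513, 0.843, 0.178 and 0.835, level with the members outside the clusters in FVB/N controls and 1.73 times to 3.25 times as high in the other groups. Those members had a median of 41.5 CG sites, and some were over a gene start. The 28 members with 21 to 60 CG sites and no gene start, DQ267102 among them, had 0.781, 0.472, 0.487 and 0.494. Beside these, DQ267102 was lower in both control groups and higher in both DEHP groups. Its probe held 23 CG sites and no known variant between the strains, and 99.1% of it was unique. The host Rian itself had 4.8 ± 2.8, 6.7 ± 2.9, 1.9 ± 2.1 and 9.2 ± 4.4.

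Imprinted genes served to check the tissue, since sperm carries the paternal germline marks and lacks the maternal ones. H19 and Meg3, marked on the paternal copy, had 25.3 ± 7.3 and 25.8 ± 10.3 normalized reads in C57BL/6J controls and 18.8 ± 5.7 and 7.0 ± 2.0 in FVB/N controls. Dlk1, in the same region as Meg3, had 1.7 ± 0.7 and 3.1 ± 4.7. The paternal germline marks of these genes lie largely outside the promoter probes, which limits this check. The 7 promoters of maternally methylated genes (Snrpn, Snurf, Peg3, Mest, Kcnq1ot1, Peg10 and Plagl1) had between 0.5 and 8.1 normalized reads in the 4 groups, Peg3 in FVB/N DEHP being the highest. The probe of Snrpn does not overlap that of Snurf, and whether it covers the maternal mark was not tested. The mean of H19 exceeded those of the 7 in every group, whereas that of Meg3 was below Peg3 in FVB/N DEHP (5.2 ± 0.7 against 8.1 ± 3.0).

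Whether DEHP given to the mother was accompanied by altered reads over these promoters was asked in each strain. Promoters whose 5 DEHP libraries lay wholly above or below their 5 control libraries, by the ranges described above, were counted. Such a promoter has an exact permutation p of 0.00794 (two-sided), the smallest that 5 against 5 allows, not adjusted for the number of promoters. In C57BL/6J 1 of 111 members was separated, Snord57, with fewer reads in DEHP. Over all promoters 1.67% were separated, 1.42% with fewer and 0.249% with more reads. In FVB/N 3 of 111 were separated, DQ267102 and Snord90 with more reads in DEHP and Snord37 with fewer, where 1.63% of all promoters were (0.774% with more and 0.859% with fewer). The members' counts were close to these shares. No member was separated in both strains. The share of all promoters separated in both was not taken, and with 1 and 3 members this is not read as a result about them.

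Snord57 had 70.5 ± 13.0 normalized reads in C57BL/6J controls and 29.1 ± 9.0 in C57BL/6J DEHP, a ratio of 0.413 and a log2 ratio of -1.25 ± 0.23 (SE, after adding 1 read to each mean). All control libraries were at 47.1 or more and all DEHP libraries at 45.3 or less. In FVB/N its groups overlapped (44.0 ± 15.5 and 35.6 ± 6.9). Snord37 had 108.0 ± 24.0 in FVB/N controls and 30.2 ± 5.2 with DEHP, a log2 ratio of -1.80 ± 0.18, with controls at 64.9 or more and DEHP at 39.6 or less. In C57BL/6J it had 132.6 ± 55.0 and 25.1 ± 12.2, a larger drop of the mean (-2.36 ± 0.40), but the wide control range reached down to 34.1 and overlapped that of DEHP, up to 47.1. From rank 7 among all promoters in both control groups it went to rank 216 and 112 in the DEHP groups of C57BL/6J and FVB/N.

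DQ267102 rose in FVB/N sperm from 4.1 ± 2.2 to 19.2 ± 1.3 normalized reads, a log2 ratio of 1.99 ± 0.28, with controls at 8.17 or less and DEHP at 16.7 or more. In C57BL/6J the means were 11.8 ± 2.9 and 19.4 ± 6.3 and the ranges overlapped. Snord90, in an intron of Rc3h2, went from 3.2 ± 1.4 to 11.2 ± 2.9 in FVB/N (1.54 ± 0.26), with controls at 5.84 or less and DEHP at 5.87 or more, a gap of 0.029 normalized reads, and from 8.8 ± 5.4 to 10.6 ± 4.7 in C57BL/6J with overlap. DQ267102 and Snord37 were separated in FVB/N on each of 3 scales tried. Snord90 was separated only on the scale as deposited, where its gap is small, and its log2 ratio in FVB/N was 1.49 with equal sums and 0.96 with equal medians. Snord57 lost its separation in C57BL/6J when the groups were set to equal sums, with a log2 ratio of -0.70.

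**Figure D4:**
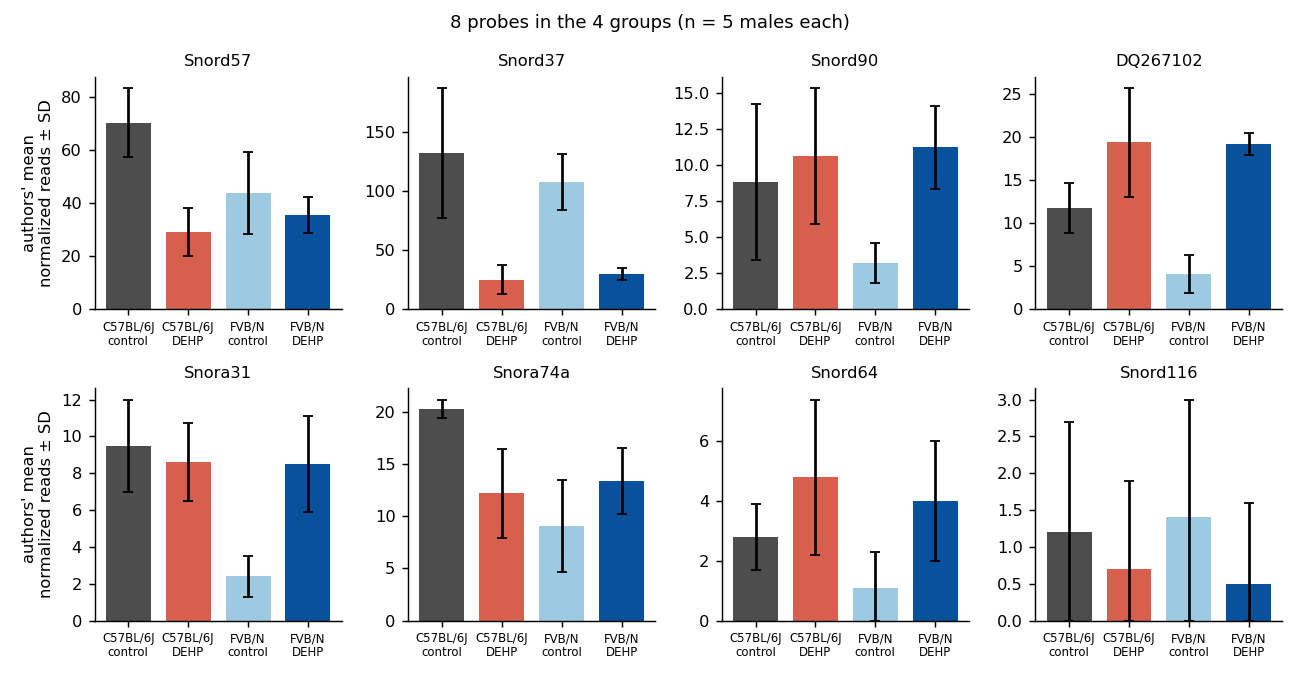
Authors' mean normalized reads (bars, vertical axis from 0) ± SD (error bars, cut at 0) of 8 probes in the 4 groups of 5 males (horizontal). Snord37 is lower in both DEHP groups than in both control groups. DQ267102, Snord90, Snora31, Snora74a and Snord64 are lowest in FVB/N controls, as is the median of all promoters.

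The deposited scale differed between groups, which bears on any common direction. The authors' means summed over all promoters to 226268 normalized reads in C57BL/6J controls and 153283 with DEHP, and for FVB/N to 141092 and 150346. The highest single promoter stood at 1971.9 and 1343.6 in the control groups and at 171.9 and 97.4 in the DEHP groups. In C57BL/6J the members' median log2 ratio, DEHP over control, was -0.25, with 69 members below 0 and 40 above, and the median of all promoters was -0.10. With equal sums these were 0.24 and 0.33, and with equal medians -0.33 and -0.16. In FVB/N the members' median was 0.45, with 78 above 0 and 32 below, against 0.35 for all promoters. With equal sums they were 0.41 and 0.29, and with equal medians -0.14 and -0.18. The sign of the members' median thus turned with the scale in both strains, as did that of all promoters. The direction of the separated promoters moved too. In C57BL/6J, 1.02% of all promoters were separated with more and 0.129% with fewer reads in DEHP at equal sums, and 0.222% and 1.88% at equal medians. In FVB/N these shares were 0.627% and 1.04% at equal sums and 0.125% and 3.25% at equal medians. At equal medians 1 member was separated with more reads in FVB/N DEHP and 5 with fewer, and at equal sums 1 and 1.

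Within the members, the direction in DEHP went with the level. To keep the level apart from the values compared, members were classed by their reads in the controls of the other strain. In C57BL/6J the 23 members with 15 or more normalized reads in FVB/N controls had a median log2 ratio of -1.16, and all 23 were below 0. The 48 members with 3 to 15 reads had -0.29 and the 40 with under 3 had 0.25. All promoters of the same 3 classes had -1.08, -0.33 and 0.26. In FVB/N the 33 members with 15 or more reads in C57BL/6J controls had -0.34, the 56 with 3 to 15 reads 0.72 and the 22 with under 3 reads 0.59, where all promoters had -0.13, 0.51 and 0.43. In C57BL/6J the order of the 3 classes was the same with equal sums (-0.61, 0.22 and 0.68) and equal medians (-1.24, -0.36 and 0.17). In FVB/N the medians were -0.43, 0.67 and 0.57 with equal sums and -1.03, 0.16 and 0.17 with equal medians, and the class of 3 to 15 reads over all promoters turned to -0.06 with equal medians. How far the weaker members lay above 0 in FVB/N thus depended on the scale. Lower log2 ratios in the strongest class than in both weaker ones were shared by promoters at large on all 3 scales, and the part of the batch in this was not tested.

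Controls are the denominator of the log2 ratios, so a choice by low or high ratio itself favours high or low control reads. The members named here from among the lowest log2 ratios had many reads in controls. In C57BL/6J they included Snord37 (-2.36) and Snord23 in Nop53 (72.4 ± 32.5 to 19.0 ± 9.2, -1.88 ± 0.41). In FVB/N they included Snord37 (-1.80) and Snord23 (-1.17 ± 0.41). Apart from Snord37 in FVB/N, the ranges of these groups overlapped. The highest log2 ratios in C57BL/6J were those of Scarna3a (1.9 ± 0.6 to 5.0 ± 2.5, 1.05 ± 0.30), the probe named Snord14d (2.6 ± 1.8 to 6.1 ± 2.2, 0.98 ± 0.38) and Snord43 (1.4 ± 1.0 to 3.5 ± 2.5, 0.91 ± 0.45), each with under 3 normalized reads in controls of that strain. In FVB/N they were those of DQ267102, Snord90 and Snora31 (2.4 ± 1.1 to 8.5 ± 2.6, 1.48 ± 0.27), with overlapping ranges for those not named as separated above.

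Limma's moderated test on the same means and SDs, Benjamini-Hochberg adjusted over all promoters, called more. In C57BL/6J it called 23 members, all with fewer reads in DEHP, which is 20.7% of members beside 13.3% of all promoters called in that direction and 16.3% in either. Among them were Snord37 (adjusted p = 4.7e-05) and Snord57 (adjusted p = 0.00676). No member was called with more reads, where 2.92% of promoters were. The called members lay in 20 merged regions, and the test was run on the deposited scale only. Of the members, 23 had 15 or more reads in FVB/N controls, beside 2324 of 22480 promoters, and that class fell most in C57BL/6J. The higher share called is therefore not read as particular to the members. At an unadjusted limma p under 0.05, 5 members had more reads in C57BL/6J DEHP males and 34 had fewer. In FVB/N it called 5 members beside 3.06% of all promoters (1.61% with more and 1.45% with fewer reads). Of the 5 members, DQ267102 (adjusted p = 0.00244), Snord90 (0.032) and Snora31 (0.0493) had more reads and 2 had fewer, Snord37 (0.000149) among them. Without adjustment, 28 members had more reads in FVB/N DEHP and 7 had fewer at a limma p under 0.05. The matching share of all promoters was not taken for either strain. The unadjusted counts are therefore not read as a result about the members.

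The 2 strains were set side by side for each member. Of 111 members, 31 had a lower mean in DEHP in both strains, 39 a higher mean in both, 37 a lower one in C57BL/6J and a higher one in FVB/N, and 1 the reverse. Over all promoters these shares were 5186, 8389, 6872 and 1172 of 22480. Across members the log2 ratios of the strains had a Pearson correlation of 0.72 and a Spearman correlation of 0.67 (n = 111 probes), beside 0.56 and 0.53 over all promoters. The strains share no libraries but share both batches and the level of each promoter, so no p is given.

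**Figure D5:**
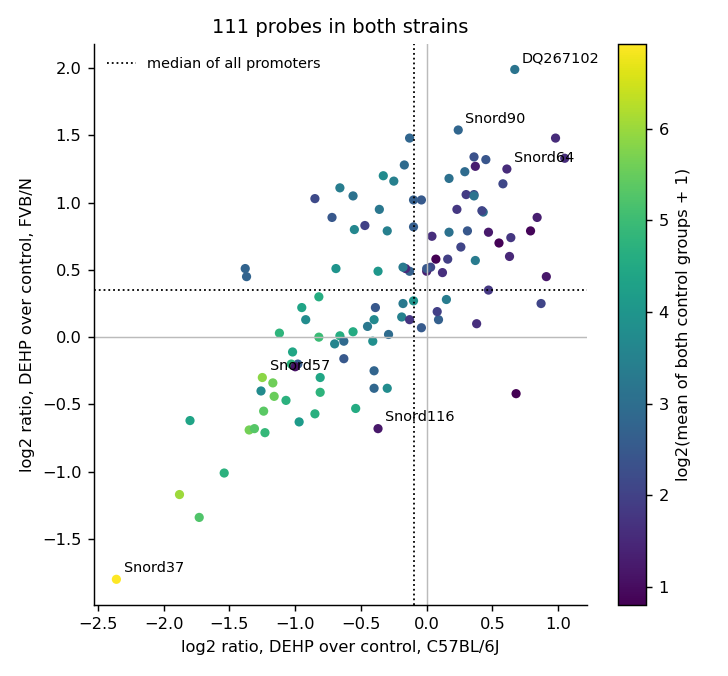
Log2 ratio of DEHP over control in C57BL/6J (horizontal) and in FVB/N (vertical), each point 1 of 111 probes, coloured by log2 of the mean of both control groups plus 1. The control groups are also the denominators of the ratios, so colour and position are not independent. Dotted lines mark the medians of all promoters (-0.10 and 0.35); the strongest probes lie at the lower left, with Snord37 at -2.36 and -1.80, and weak ones at the upper right.

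Between the strains, 2 members were separated in controls, Snora31 and Snora74a, both with more reads in C57BL/6J, beside 1.09% of all promoters (1.06% with more in C57BL/6J). Snora31, in an intron of Tpt1, had 9.5 ± 2.5 normalized reads in C57BL/6J controls and 2.4 ± 1.1 in FVB/N controls, a log2 ratio of 1.63. Snora74a had 20.3 ± 0.9 and 9.1 ± 4.4, a log2 ratio of 1.08. In DEHP males the same probes had 8.6 ± 2.1 and 8.5 ± 2.6, and 12.2 ± 4.3 and 13.4 ± 3.2. No member was separated between the strains in DEHP males, where 0.338% of all promoters were, and limma called none there (1.01% of all promoters). At an unadjusted limma p under 0.05 stood 5 members in DEHP males, 3 with more reads in C57BL/6J and 2 with fewer. In controls 38 did, all with more reads in C57BL/6J. The share of all promoters at that threshold was not taken, so these counts are not read as a result about the members. In controls limma called Snora31 (adjusted p = 0.0392) and Snora36b, beside 3.38% of all promoters. All members together had a median log2 ratio of 0.61 in controls, C57BL/6J over FVB/N, beside 0.54 for all promoters. With equal sums these were 0.02 and 0.00 and with equal medians -0.03 and -0.04. On both scales neither Snora31 nor Snora74a was separated. The log2 ratio of Snora31 was 1.06 on each, and that of Snora74a 0.44 with equal sums and 0.40 with equal medians. Of all promoters, 0.307% were separated with more and 0.111% with fewer reads in C57BL/6J at equal sums, and 0.289% and 0.129% at equal medians. The probe of Snora31 held 2 known variants between the strains and that of Snora74a none.

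The genes of the core proteins that carry these RNAs had medians near or below that of all promoters, whereas genes of assembly varied. All promoters had medians of 5.0, 5.3, 3.0 and 4.9 normalized reads in the 4 groups, the 3 measured C/D core genes 3.6, 4.2, 1.8 and 5.3, the 3 measured H/ACA core genes 2.6, 3.3, 2.6 and 2.5 and 19 measured genes of assembly and Cajal bodies 4.1, 4.1, 3.1 and 4.5. Of the core proteins of C/D particles, Fbl (fibrillarin, the methyltransferase) had 4.8 ± 3.2, 4.2 ± 1.2, 3.4 ± 2.7 and 6.1 ± 2.9 normalized reads in the 4 groups, in the order C57BL/6J control and DEHP, FVB/N control and DEHP. Nhp2l1 had 1.6 ± 1.0, 3.7 ± 1.8, 1.6 ± 2.0 and 2.2 ± 0.5. Of the H/ACA core, Nop10 had 2.4 ± 1.5, 2.5 ± 0.7, 4.3 ± 1.9 and 2.6 ± 1.3, Nhp2 had 2.6 ± 1.0, 3.3 ± 1.6, 2.6 ± 2.3 and 2.5 ± 1.6, and Gar1 had 2.6 ± 1.8, 4.5 ± 0.6, 1.1 ± 0.9 and 2.4 ± 0.8. None of these 6 measured genes, Nop56 included, was separated in any of the 4 comparisons. In the assembly list the highest were Rrp9, a protein of the U3 particle, with 32.8 ± 15.8 normalized reads in C57BL/6J controls and 14.4 ± 6.0 in FVB/N controls, and Exosc10, a nuclease of the exosome, with 24.7 ± 6.0 and 12.6 ± 5.9. Of its 19 genes, 1 was separated in 1 of the 4 comparisons, where 1.63% of all promoters were: Dis3, a nuclease of the exosome, with 3.2 ± 2.0 in FVB/N controls and 9.5 ± 0.8 with DEHP.

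Of 19 measured host and cluster genes, 1 was separated between DEHP and control in C57BL/6J, beside 1.67% of all promoters, and 1 between the strains in controls, beside 1.09%. With so few genes these counts are not read as a result about the list. Snrpn had 0.5 ± 0.7 normalized reads in C57BL/6J controls and 4.0 ± 1.0 in C57BL/6J DEHP, with 1.1 ± 1.2 and 4.4 ± 1.2 in FVB/N, where the ranges overlapped. The Snrpn probe (chr7:60449978-60452177) does not overlap that of Snurf (chr7:60004957-60007156), and whether it covers the imprinted mark was not tested. The means of Snurf, given below, did not rise with DEHP in either strain. Mirg, a host of microRNAs downstream of Rian, had 42.6 ± 4.0 in C57BL/6J controls and 19.2 ± 7.2 in FVB/N controls. Meg3 went from 25.8 ± 10.3 to 9.2 ± 2.7 in C57BL/6J and from 7.0 ± 2.0 to 5.2 ± 0.7 in FVB/N, with overlap in both. Snurf (1.2 ± 0.8, 1.2 ± 1.0, 1.9 ± 1.7 and 0.7 ± 1.0 in the order of groups above) and Ube3a (0.7 ± 1.0, 0.9 ± 0.6, 1.3 ± 1.6 and 1.0 ± 1.3) were low throughout. The host promoters Gas5 and Snhg1 had 1.9 ± 1.1 and 4.7 ± 1.8 in C57BL/6J controls, while Snord47 inside Gas5 had 10.1 ± 2.1 and Snord22 inside Snhg1 had 3.1 ± 2.3.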

How the data were processed

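Sperm DNA of 20 males in 4 groups of 5 was measured by MBD-seq. The authors aligned read pairs to mm10 with Bowtie 0.12.7, dropped pairs that mapped to several positions, were over-long or held no CG, counted pairs per probe and normalized them with edgeR. The deposited table gives these signal values as group means and SDs rounded to 0.1, with whole-number counts of CG sites and of known strain variants per probe. Its columns of fold changes, p-values, false discovery rates and published expression were not used. Single libraries and their depth were not analysed here, so precision is known from the SDs alone.

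Members and lists were chosen with earlier results of these data known. Promoters were called separated where mean ± 1.79 SD did not overlap after mean and SD were each widened by 0.05 for rounding, computed for all 22480. This bound holds for any 5 values with that mean and SD, so it cannot show a separation the libraries lack. Log2 ratios used a pseudocount of 1. The alternative was limma 3.58.1 (squeezeVar on group variances, adjusted p under 0.05). Hosts came from GENCODE M21 and RefSeq, sequences from the RefSeq genome GRCm38.p6, the same build as mm10. The reference CG count equalled the deposited one in 107 members. Uniqueness was taken from 51-base sequences every 20 bp. Named were all separated members, the 2 highest and 2 lowest of each class, and the 3 highest and 3 lowest log2 ratios per strain among means of at least 1; examples of host genes and Meg3, H19 and other imprinted genes come from lists or from the ordering by distance, the 7 plotted hosts having been chosen after their values were seen. A few items that this rule names are not reported here.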

Additional observations from a re-analysis of the deposited data

How the results depend on the processing

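Separated members numbered 1 in C57BL/6J DEHP against control as deposited and 0 with equal sums, and limma's test called 23. In FVB/N the 3 (2 with more and 1 with fewer reads in DEHP) became 6 with equal medians (1 and 5), where 0.125% of all promoters had more and 3.25% fewer reads, and 5 with limma's test. The 2 members separated between strains in controls became 0 with equal sums and 0 with equal medians. A filter at a mean of 1 normalized read and merging overlapping probes left these counts as they were or within 1.5 times. The chromosome 7 difference per CG site moved to 0.53 with probes at least 90% unique in the cluster, which leaves Snord64, and among the rest. The difference of probes over a gene start moved to -1.59 with the starts of all annotated transcripts, an alternative chosen after seeing the data. The causes were not tested.

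Without values of single libraries no male was left out and no count model was fitted. No paired analysis was possible because the labels give no shared replicate numbers. Low means limit the precision: 4 of 111 members had a mean under 1 normalized read over the 4 groups, and 11 had under 90% unique sequence.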

Other observations

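The RNAs for which the annotation used here named no host on their own strand did not share one level. Snora43 and Snora17, neighbours in 1 merged region, had 29.5 ± 10.8 and 14.3 ± 5.8 normalized reads (authors' mean ± SD, n = 5) in C57BL/6J controls and 16.9 ± 13.0 and 7.7 ± 5.4 in FVB/N controls. Snord104 had 5.7 ± 1.6 and 3.3 ± 2.5. The Snora17 probe holds the start of Snhg7os, and those of Snora43 and Snord104 hold no gene start in the basic annotation.

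Of the 4 members on the X chromosome, Snora69 and Snord61 are named above. Snora70 in Rpl10 had 6.4 ± 3.2, 4.6 ± 1.5, 5.4 ± 3.2 and 4.4 ± 2.5 normalized reads, with the groups in the order C57BL/6J control and DEHP, FVB/N control and DEHP. Snora35 in Htr2c, a serotonin receptor gene, had 3.6 ± 3.3, 3.2 ± 1.7, 1.1 ± 0.7 and 1.3 ± 0.8.

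The spread differed between groups. Over all promoters with a mean of 5 to 10 normalized reads, the median SD was 0.628 of the mean in FVB/N controls and 0.351 with DEHP, and 0.426 and 0.380 in C57BL/6J.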
